A study of Mus musculus with 12 samples.

Results

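The miR-297, miR-466 and miR-467 families are 3 sets of mouse miRNAs whose hairpins lie mainly in introns of the gene Sfmbt2. They were followed here through 50 rows of a count table of 1978 mature miRNAs, taken as every row named miR-297, miR-466 or miR-467 followed by a letter. Small RNA libraries came from mouse embryonic stem cells (ESC) of the E14 line and from mouse trophoblast stem cells (TSC), which give rise to placental trophoblast. Both were sampled as wild-type (WT) control cells and as cells labelled as paused by mTOR inhibition, and the labels name neither the inhibitor nor the time of treatment. The TSC line is not named, and E14 is 1 established line, so the ESC libraries describe that line. Of 12 labelled samples, the third of each of the 4 groups was identical to the second at each of the 1978 rows and the pair entered as 1 sample, so that n = 2 libraries per group, 8 in all.

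Sfmbt2 encodes a Polycomb-group protein and is imprinted, with expression from the paternal allele in extraembryonic tissue such as trophoblast. A large intron of the gene carries a rodent-specific array of repeated miRNA hairpins, and mice that lack the array form abnormal placentas. Each hairpin is cut into a 5p and a 3p arm, and the seed, bases 2 to 8 of the mature arm, largely sets which messenger RNAs are repressed. mTOR is a kinase that drives growth, and its inhibition puts ESC and mouse blastocysts into a reversible dormant state like diapause. The series asks which miRNAs change on this pausing.

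Mature sequences in the RefSeq-based table (GRCm38.p6) matched 7 of the 50 members by name, and 1 of these had 10 or more counts. The 5 matched members with any count are printed to show their own low-complexity CA or GU repeats. Their hairpins lie outside Sfmbt2. No sequence was matched for a member inside the gene, so these do not stand for the members there. The seed is in capitals.
miR-466i-3p: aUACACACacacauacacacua
miR-466j: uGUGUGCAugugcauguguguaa
miR-466q: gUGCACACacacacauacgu
miR-467f: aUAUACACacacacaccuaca
miR-467g: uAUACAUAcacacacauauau
The 7 matched sequences carried 7 distinct seeds, so no seed was shared among them. In miR-466i-3p, 71.4% of neighbouring base pairs along the strand were AC or CA, and in miR-466j 63.6% were GU or UG. miR-466i-3p lies on the plus strand of chromosome 13 at 17747552 to 17747573, in an intron of Cdk13. It had 18 counts, of which 13 were in control TSC and 5 in paused TSC, with 0 in the 4 ESC libraries. The other 4 printed members had 1 to 3 counts each over the 8 libraries.

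In the GENCODE annotation of GRCm38, Sfmbt2 spans chromosome 2 from 10370510 to 10595253 on the plus strand, and each matched hairpin inside it lay in an intron, with no exon overlap. In all, 35 rows had all their matched hairpins in Sfmbt2 and held 3514 counts, or 78.9% of the counts on the members. Another 5 rows had some hairpins there and some elsewhere, and held 17.5%. The 8 rows with no hairpin in Sfmbt2 held 24 counts (0.539%). The 2 arms of miR-466a, with 3.01% of the counts, matched no hairpin by name. Most members lie within this 1 host gene, and 10 of the 11 tested were called lower in paused ESC, beside 19.4% of all tested miRNAs. A part of the promoter in that fall was not tested. The 250 bases before the first RefSeq start of Sfmbt2 (GRCm38.p6, chr2:10370201-10370450, plus strand) are shown with each CG dinucleotide in capitals.
Sfmbt2: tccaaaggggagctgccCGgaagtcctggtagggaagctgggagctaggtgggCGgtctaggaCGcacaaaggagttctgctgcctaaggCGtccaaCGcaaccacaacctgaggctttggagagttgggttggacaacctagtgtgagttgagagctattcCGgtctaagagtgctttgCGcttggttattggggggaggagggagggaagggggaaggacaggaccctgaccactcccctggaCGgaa
The stretch held 8 CG sites, the same on both strands, and 43.0% of 32851 mouse promoter stretches of that length held at least as many. The stretch before the second RefSeq start (chr2:10372186-10372435, plus strand) held 15, which 27.3% reached. DNA methylation was not measured in these libraries.

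Only part of each family was seen. The miR-466 family had 31 rows, of which 15 held 2134 counts over the 8 libraries and 16 held none. The miR-467 family had 13 rows, of which 8 held 1918 counts and 5 none. The miR-297 family had 6 rows, of which 2 held 400 counts and 4 none. Over the families, 25 rows had counts, 17 had 10 or more, and these 17 held 99.3% of the 4452 counts. The zeros followed the number of hairpins: 10 of 11 rows with 2 or more matched hairpins stood at 0, among them both arms of miR-467a with 10 hairpins, of miR-466b with 8 and of miR-297a with 4. Of 37 rows with 1 hairpin, 14 stood at 0. The exception was miR-466f-3p, which has 4 hairpins (3 in Sfmbt2 and 1 on chromosome 13) and 780 counts. How reads matching several loci were counted is not given in the sources used here. Values of miR-466f-3p, and the split of reads among members of possibly similar sequence, are therefore uncertain.

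The families also differed in the arm that was counted. All 400 miR-297 counts were on 5p rows. In miR-467, 1671 counts were 5p and 243 were 3p, and the 5p share ran from 78.9% to 100.0% in the 8 libraries. In miR-466, 1285 counts were on 3p rows and 240 on 5p rows, while 609 were on rows named without an arm, nearly all on miR-466g.

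Libraries summed to 19266 and 13607 counts in control ESC and 73574 and 61749 in paused ESC, while TSC gave 115492 and 18725 in control and 23652 and 30487 in paused cells, so depth was shallow and uneven. Counting intervals and floors cover counting error only, since no molecular identifiers are mentioned. The labels do not say that libraries came from separate cultures, so p-values measure only the spread between these samples, which may be technical. The labelled cell types were checked by miRNA lists: the miR-322/miR-503 list of TSC held 5.76% to 11.3% of counts in the TSC libraries and 0.0986% to 0.160% in ESC. The miR-290 and miR-302/miR-367 list of ESC held 62.5% to 65.2% in ESC and 45.7% to 56.0% in TSC, so it did not set ESC apart alone. Lists of neural and muscle miRNAs reached at most 0.00779% in any library, and the fibroblast or mesenchymal list at most 0.120%.

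Summed over rows, the 3 families were abundant in TSC in both states and in control ESC, and scarce in paused ESC. Together they held 1.53% ± 0.305 of all counts in control ESC and 0.131% ± 0.00889 in paused ESC, while TSC gave 1.97% ± 0.0460 in control and 2.04% ± 0.0146 in paused cells (SD, n = 2). The 2 paused ESC libraries lay far below the other 6, and those 6 ranged only from 1.32% to 2.05%. In bulk samples, fewer cells of a type and less RNA per cell cannot be told apart.

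The miR-466 share was 0.960% and 1.34% in the control ESC libraries and 0.0843% and 0.0615% in paused ESC, while TSC gave 0.869% and 0.919% in control and 0.791% and 0.994% in paused cells. One control ESC library lay inside the range of the TSC libraries and the other above it. The log2 ratio of paused to control ESC was −3.98 with a propagated SD of 0.47. The miR-467 share was 0.332% and 0.375% in control ESC and 0.0530% and 0.0632% in paused ESC, while TSC gave 0.979% and 0.710% in control and 0.799% and 0.892% in paused cells. Both control ESC libraries lay below all 4 TSC libraries, and the paused ESC libraries lay lower again, with a log2 ratio to control of −2.61 (propagated SD 0.22). The miR-297 share was 0.0260% and 0.0294% in control ESC and 0 in both paused ESC libraries, where a count of 0 allows up to 0.00408% and 0.00486%. In TSC it was 0.155% and 0.310% in control and 0.440% and 0.164% in paused cells, so the 2 TSC groups overlapped. These shares are a description with no test, and 2 libraries against 2 cannot go below p = 0.33 in an exact permutation test.

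**Figure D1:**
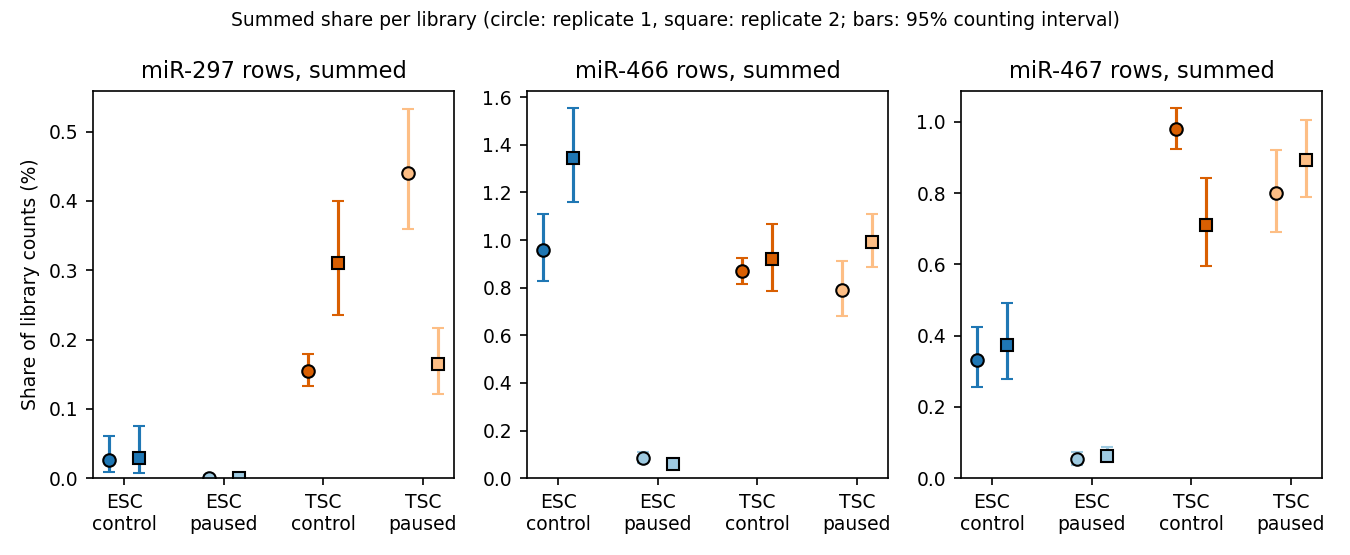
Share of each library's counts (%, linear axis from 0) on the summed miR-297, miR-466 and miR-467 rows, by group; circles are replicate 1, squares replicate 2 and bars the 95% Clopper-Pearson interval, which covers counting error only. The paused ESC libraries sit at or below 0.0843% in every panel, while control ESC reaches the TSC level for miR-466 (0.960% and 1.34%) but not for miR-467 or miR-297.

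For tests, all miRNAs were fitted together with edgeR's quasi-likelihood model, and those with a Benjamini-Hochberg adjusted p under 0.05 were called. Of the 50 members, 11 passed the filter on low counts (about 369 CPM before scaling in 2 libraries). Among the 11, 10 would have passed on the TSC libraries alone, and miR-466m-3p passed only through control ESC. CPM values are counts scaled to a common library size by edgeR's TMM factors. Fold changes are on the log2 scale with a standard error (SE) computed from the fold change and the F statistic of its test.

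In paused ESC 10 of the 11 tested members were lower than in control ESC and 0 were higher. One of the 10, miR-466m-3p, passed the filter through control ESC only, so its direction was built into its testing. Over all tested miRNAs of the table, 19.4% were called lower and 8.25% higher (18.0% and 14.1% with median-of-ratios scaling). By edgeR 0 members were higher at an unadjusted p under 0.05, and by DESeq2 0 were called higher. The median fold change of the 11 was −3.60 on the log2 scale, against −0.03 over all tested miRNAs. The libraries of the 2 states did not overlap for 9 of the 11. The same held for most of all tested miRNAs (141), so lack of overlap alone does not set the members apart. The member not called was miR-467b-3p, with 1 count in control ESC and 0 in paused ESC.

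In the miR-466 family, miR-466f-3p measured 3464 and 3451 CPM in control ESC and 212 and 201 in paused ESC, while TSC gave 4229 and 4454 in control and 3472 and 3931 in paused cells. Paused ESC stood alone, more than 10 times below each other library. It fell by 4.04 on the log2 scale in paused ESC (SE 0.43, 95% interval −4.90 to −3.19, edgeR adjusted p = 5.89e-18). miR-466g measured 2871 and 4090 CPM in control ESC and 312 and 248 in paused ESC, while TSC gave 3299 and 2949 in control and 2108 and 2419 in paused cells. It comes from 1 hairpin and shows the same pattern as miR-466f-3p, so that pattern does not rest on a row with several hairpins. It fell by 3.60 on the log2 scale in paused ESC (SE 0.42, edgeR adjusted p = 2.92e-15). miR-466d-3p measured 775 and 1214 CPM in control ESC and 112 and 92.8 in paused ESC, while TSC gave 2803 and 1445 in control and 1199 and 1421 in paused cells. It fell by 3.20 in paused ESC (SE 0.54, edgeR adjusted p = 6.06e-08), and its control ESC libraries lay at or below the TSC libraries except for 1214 against 1199 CPM. The sparser miR-466a-5p and miR-466m-3p were called lower as well. With 1 count in paused ESC, the ratio of control to paused was 46.2 for miR-466a-5p (95% counting interval 6.84 to 1977), and with 2 counts it was 42.4 for miR-466m-3p (10.4 to 372).

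In the miR-467 family, miR-467e-5p, the best counted member with 1135 counts, measured 1367 and 1470 CPM in control ESC and 337 and 278 in paused ESC, while TSC gave 8739 and 3973 in control and 5001 and 4959 in paused cells. Its 4 TSC libraries all lay above control ESC, which in turn lay above paused ESC. It fell by 2.18 on the log2 scale in paused ESC (SE 0.44, edgeR adjusted p = 7.86e-06). miR-467d-5p measured 638 and 511 CPM in control ESC and 62.3 and 108 in paused ESC, while TSC gave 2344 and 1505 in control and 785 and 1058 in paused cells. It fell by 2.76 in paused ESC (SE 0.59, edgeR adjusted p = 3.22e-05), and the levels stepped down from control TSC to paused TSC, control ESC and paused ESC with no overlap. miR-467c-5p measured 638 and 895 CPM in control ESC and 87.3 and 186 in paused ESC, while TSC gave 1669 and 843 in control and 951 and 726 in paused cells. It fell by 2.48 in paused ESC (SE 0.52, edgeR adjusted p = 1.85e-05), while control ESC overlapped both TSC groups. The 3p arm of the miR-467e hairpin, miR-467e-3p, had 7 counts in control and 1 in paused ESC, a ratio of 27.0 (95% counting interval 3.47 to 1216).

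The best counted miR-297 row, miR-297c-5p, measured 0 and 192 CPM in control ESC, 0 in both paused ESC libraries, 1707 and 3371 in control TSC versus 4133 and 1300 in paused TSC. Its counts were almost all in TSC, and its ESC values rest on 3 counts in 1 control library. It was called lower in paused ESC (edgeR adjusted p = 0.0138), but the groups overlapped at 0 and no fold is given. Without replicate 2 of control ESC its value was 0 and it was not called, and DESeq2 did not call it either.

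**Figure D2:**
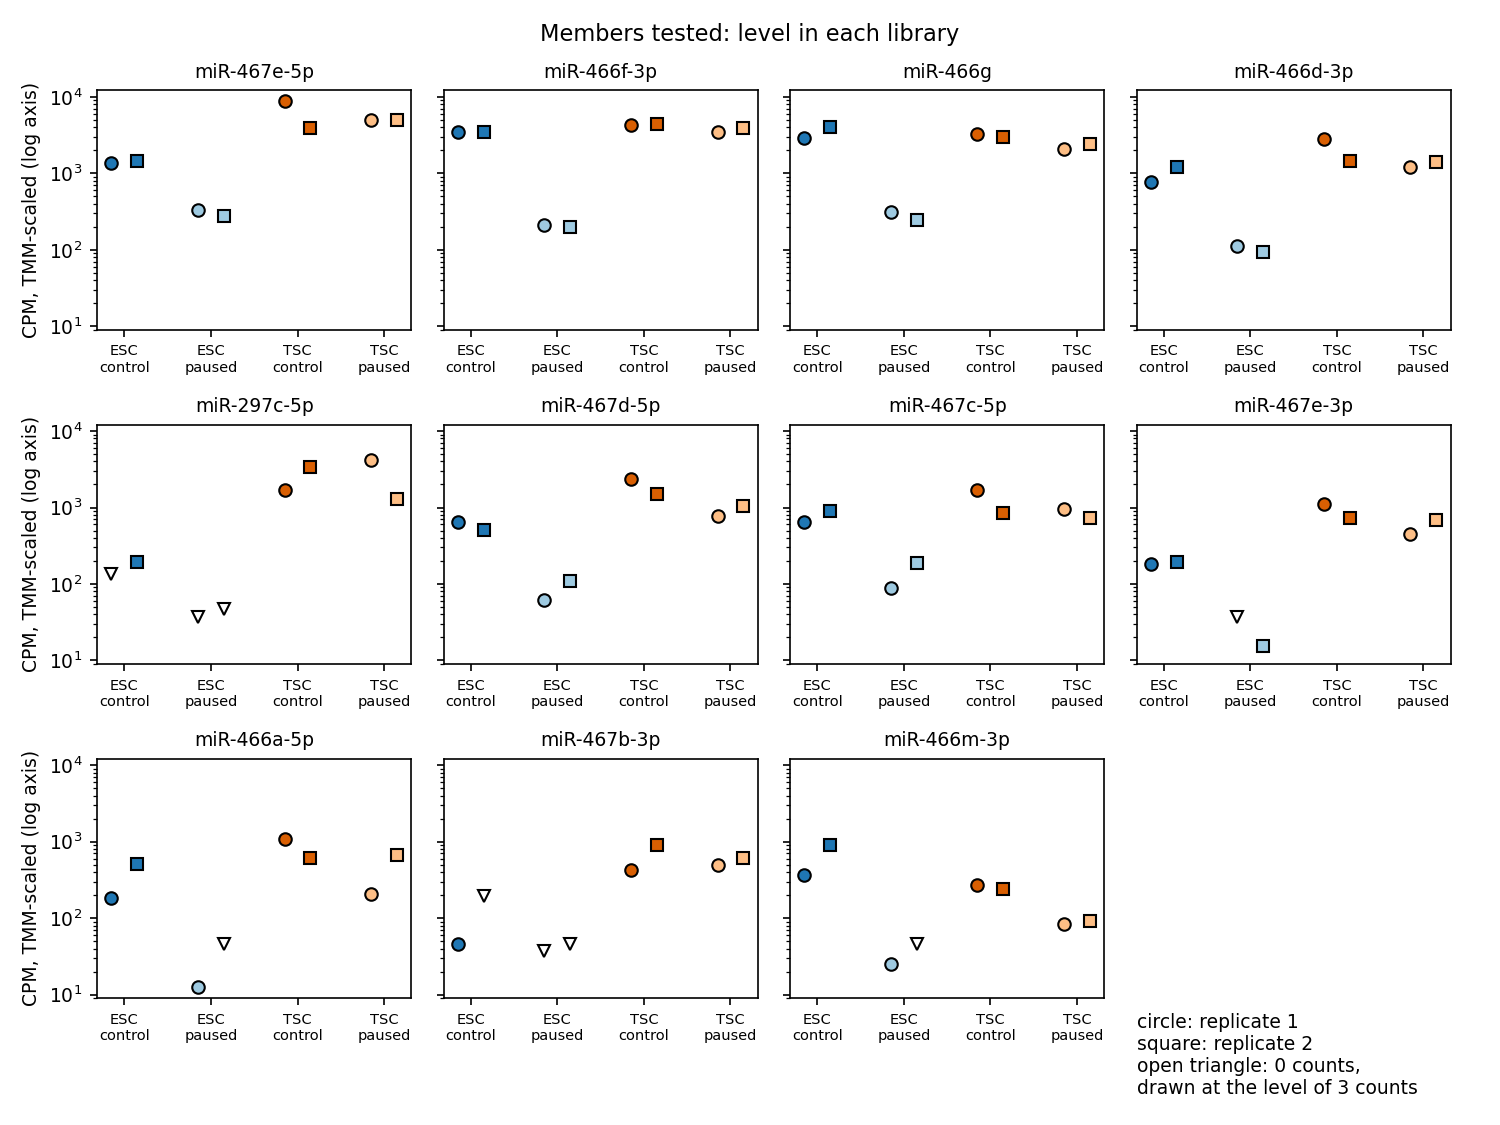
Level (TMM-scaled CPM, log axis) of the 11 tested members in each of the 8 libraries; circles are replicate 1, squares replicate 2, and open triangles mark 0 counts, drawn at the level of 3 counts. For miR-466f-3p the paused ESC libraries (212 and 201 CPM) lie far below the other 6 (3451 to 4454 CPM), and for miR-297c-5p the ESC libraries reach at most 192 CPM.

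Markers of cell types were read beside these values. In ESC the summed share of the miR-290 and miR-302/miR-367 list ranged from 62.5% to 64.7% in control and from 65.0% to 65.2% in paused libraries. The sum hides rows of this list that fell with the members. On pausing of ESC miR-302b-3p, miR-302d-3p and miR-367-3p changed by −5.02, −5.92 and −5.14 on the log2 scale (edgeR adjusted p = 2.95e-06, 3.58e-05 and 2.57e-09). Its other tested rows ran from −0.80 (miR-293-3p) to 0.65 (miR-294-3p). The TSC list, with 13 rows, ranged from 0.0986% to 0.154% (5 rows with counts) in control and from 0.147% to 0.160% (10 rows) in paused ESC, so it did not fall with the members. The summed share of the blood list fell, from between 0.893% and 1.11% in control to between 0.486% and 0.574% in paused ESC (3 and 5 of 9 rows with counts). Its rows went both ways. On the log2 scale miR-142a-5p and miR-142a-3p fell by 4.25 and 3.86, while miR-150-5p rose by 1.20 (edgeR adjusted p = 6.74e-20, 2.27e-15 and 0.00813). The part of this list in the result was not tested. Both paused ESC libraries were deeper than both control ESC libraries, so 0 counts there allow less than in control.

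In TSC the families held about the same share of counts in the paused and the control state. By edgeR, 1 member was called lower, miR-467d-5p, and 0 were called higher, where 17% of all tested miRNAs were called lower and 1.94% higher (5.83% and 6.80% with total counts alone as the scale). miR-467d-5p fell by 1.10 on the log2 scale (SE 0.39, edgeR adjusted p = 0.0328), from 1924 ± 593 to 922 ± 193 CPM (SD, n = 2), but its call was lost in 16 of 17 alternatives, with adjusted p from 0.127 to 0.693. By DESeq2 0 members were called higher and 0 lower, and 0 were higher at an unadjusted p under 0.05 in edgeR. The median of the 11 fold changes was −0.71, against −0.39 over all tested miRNAs. With total counts alone as the scale these medians were −0.19 and 0.08, so the scale moved all miRNAs by more than 0.1 and the small changes in TSC turn with it: miR-466f-3p was −0.22 (95% interval −0.91 to 0.46, edgeR adjusted p = 0.714) and 0.23 with total counts. The fold change of miR-466g was −0.47 (95% interval −1.19 to 0.25), that of miR-467e-5p −0.39 (−1.05 to 0.28), and that of miR-297c-5p 0.14 (−0.60 to 0.89). A fall as large as those of miR-466f-3p and miR-466g in ESC lies outside these TSC intervals.

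miR-297c-5p varied inside both TSC groups, with 1707 and 3371 CPM in control and 4133 and 1300 CPM in paused TSC. Its counts were 134 and 56 in control TSC versus 100 and 43 in paused TSC, which is 5.79% and 15.4% of the counts on the 3 families in control and 20.8% and 6.88% in paused cells. Without replicate 2 of control TSC it was called higher in paused TSC (1.10 on the log2 scale, edgeR adjusted p = 0.0377), and without replicate 1 of paused TSC its value was −0.48. The TSC marker list was also lower in paused TSC (5.76% to 7.64%) than in control TSC (10.1% to 11.3%), and its part in these values was not tested.

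**Figure D3:**
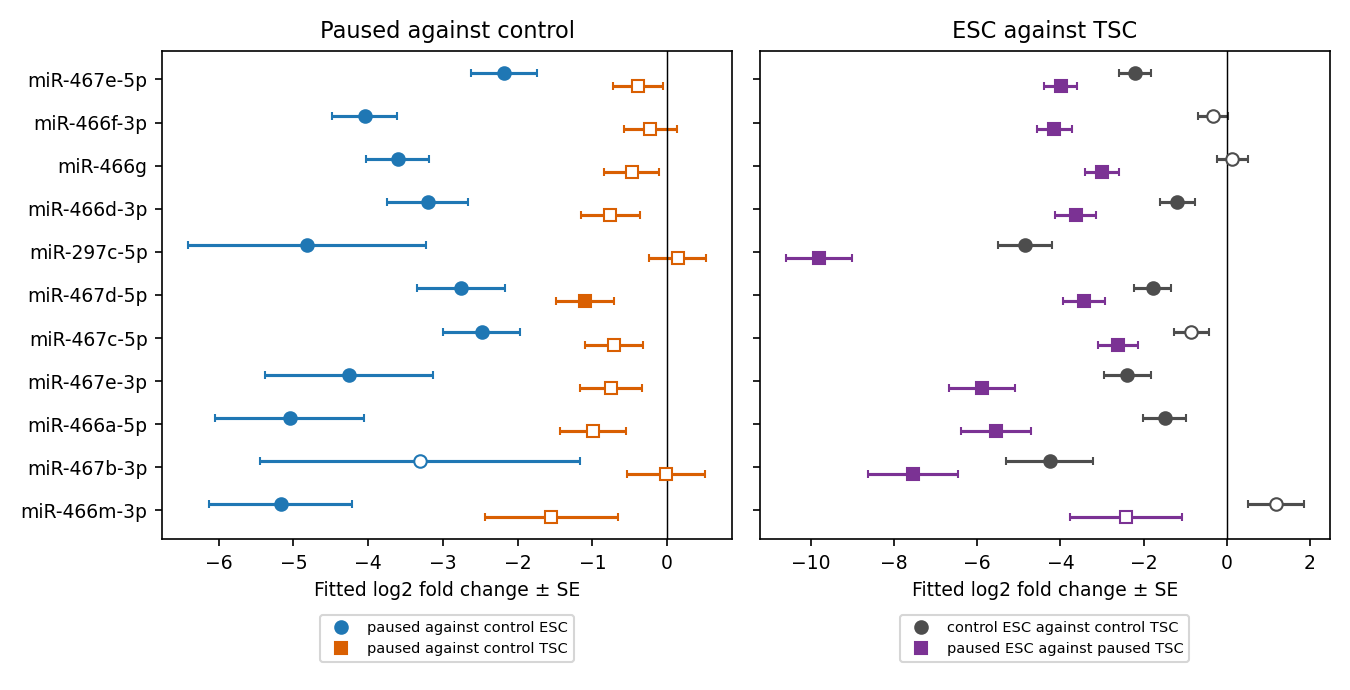
Fitted log2 fold change with SE for the 11 tested members, paused against control (left) and ESC against TSC (right); filled symbols were called at an edgeR adjusted p under 0.05. Fitted values of rows with 3 or fewer counts in a group (such as miR-297c-5p and miR-467b-3p in ESC) depend on the prior count; in the left panel the ESC values lie left of the TSC values for each member.

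Control ESC and control TSC differed mainly in miR-467 and miR-297, and less in miR-466. Of the 11 tested members 7 were lower in ESC and 0 higher, where 40.8% of all tested miRNAs were lower and 33.5% higher. With total counts alone 5 members were lower and 1 higher, where 30.6% and 43.2% of all were. At an unadjusted p under 0.05 edgeR put 0 members higher, and DESeq2 called 0 higher and 3 lower. Over all tested miRNAs DESeq2 called 35.9% higher and 25.2% lower, so 3 of 11 is near that share. The median fold change was −1.49, against −0.23 over all tested miRNAs. miR-467b-3p, miR-467e-3p and miR-297c-5p passed the filter through the TSC libraries only, so a difference in that direction was built into their testing. miR-466a-5p had 1 control ESC library above the cutoff and also needed the TSC libraries to pass, so the same limit holds for it.

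The log2 fold change of control ESC against control TSC was −2.20 for miR-467e-5p (SE 0.39, edgeR adjusted p = 6.16e-08), −2.39 for miR-467e-3p (SE 0.57, 7.53e-05) and −1.78 for miR-467d-5p (SE 0.45, 0.000164). With 3 counts in ESC, the ratio of control TSC to control ESC was 25.0 for miR-297c-5p (95% counting interval 8.44 to 122), and with 1 count it was 19.0 for miR-467b-3p (3.25 to 765). The calls of miR-466a-5p (−1.49, edgeR adjusted p = 0.00691) and miR-466d-3p (−1.19, adjusted p = 0.00894) were lost in 10 and 11 of 17 alternatives. miR-467c-5p was not called (−0.85, 95% interval −1.68 to −0.03, edgeR adjusted p = 0.0573).

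The 2 best counted miR-466 rows did not differ past the threshold. miR-466g was at 0.14 (95% interval −0.59 to 0.86, edgeR adjusted p = 0.756) and miR-466f-3p at −0.32 (−1.03 to 0.38, adjusted p = 0.411), and the sign of miR-466f-3p turned with total counts (0.24) and with median-of-ratios scaling (0.16). The CPM of miR-466m-3p was higher in ESC, at 365 and 895 CPM in control ESC and 268 and 241 in control TSC (1.19, 95% interval −0.12 to 2.50, edgeR adjusted p = 0.0958). It passed the filter through control ESC alone, and it was called higher in ESC in 6 of 16 alternatives, among them total counts (1.85, adjusted p = 0.0148).

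In the paused state the gap between the cell types was wide. Of the 11 tested members 10 were lower in paused ESC than in paused TSC and 0 higher, beside 39.3% lower and 37.4% higher among all tested miRNAs. As in the control state, the direction of miR-297c-5p, miR-467b-3p and miR-467e-3p was built in, since they passed the filter through TSC only. miR-466a-5p, with 0 paused ESC libraries above the cutoff, also needed the TSC libraries to pass. Neither edgeR at an unadjusted p under 0.05 nor DESeq2 put any member higher (0 each). The median was −4.00, against 0.01 over all tested miRNAs. All 11 had no overlap between the 2 groups, but most of all tested miRNAs (187) had none either. miR-466f-3p was lower by −4.14 (SE 0.43), miR-467e-5p by −4.00 (SE 0.41), miR-466d-3p by −3.63 (SE 0.50), miR-467d-5p by −3.43 (SE 0.51), miR-466g by −2.999 (SE 0.42) and miR-467c-5p by −2.62 (SE 0.47), with edgeR adjusted p-values from 1.14e-20 to 1.03e-07. miR-297c-5p was at least 121-fold lower in paused ESC (0 counts in paused ESC, floor of 3 counts over the group), and miR-467b-3p at least 27.0-fold lower. The ratio of TSC to ESC was 68.3 for miR-466a-5p (95% counting interval 11.3 to 2796) and 86.0 for miR-467e-3p (14.4 to 3495), each with 1 count in paused ESC. miR-466m-3p was not called (−2.43, 95% interval −5.08 to 0.22, edgeR adjusted p = 0.0906). This comparison shares its paused ESC libraries with the test of pausing in ESC.

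The difference between the pause effects was tested directly, as the effect in ESC minus that in TSC. It was called for 8 of the 11 tested members, all in the direction of a deeper fall in ESC, and 0 in the other direction, where 11.7% of all tested miRNAs were called lower and 14.6% higher. With total counts alone 10 members were called lower and 0 higher, where 19.4% and 8.25% of all were. By edgeR at an unadjusted p under 0.05, and by DESeq2, 0 members were called higher. The median over the 11 was −3.29, against 0.33 over all tested miRNAs. The difference was −3.82 for miR-466f-3p (SE 0.56, edgeR adjusted p = 9.14e-10) and −3.13 for miR-466g (SE 0.56, adjusted p = 8.59e-07), and these 2 kept their call in all 16 alternatives. The size was −2.45 for miR-466d-3p (SE 0.67, adjusted p = 0.00266), −1.80 for miR-467e-5p (SE 0.55, 0.00854) and −1.76 for miR-467c-5p (SE 0.64, 0.0283). miR-467d-5p, miR-466m-3p and miR-467b-3p were not called, at −1.66, −3.62 and −3.29 (edgeR adjusted p = 0.0604, 0.0583 and 0.248). Many calls were lost without replicate 2 of control ESC, the shallowest library, and without replicate 2 of paused TSC. Each of these fits left a single library in that group, and the set of tested members changed. The medians of the members were −2.83 and −3.05 there, against 0.32 and 0.24 over all tested miRNAs.

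The make-up of the families within a library does not depend on scaling between libraries. miR-466 rows held 72.8% and 76.9% of the member counts in control ESC and 61.4% and 49.4% in paused ESC, while TSC gave 43.4% and 47.4% in control and 39.0% and 48.5% in paused cells. Control ESC thus had the most miR-466-rich make-up. Paused ESC lay between it and TSC, but its replicate 2 (38 of 77 counts, 49.4%) was close to the highest TSC library (48.5%). No counting interval was computed for these make-up shares. miR-467e-5p alone took 11.8% and 9.66% of member counts in control ESC and 26.7% and 23.4% in paused ESC, while TSC gave 29.6% and 18.2% in control and 25.2% and 26.2% in paused cells. The ratio of miR-466f-3p to miR-467e-5p counts was 2.53 and 2.35 in control ESC and 0.630 and 0.722 in paused ESC, while TSC gave 0.484 and 1.12 in control and 0.694 and 0.793 in paused cells. The control ESC libraries lay above the other 6, and paused ESC fell inside the range of the TSC libraries. The exact two-sided permutation test of paused against control ESC gave p = 0.33, the smallest that 2 against 2 allows. The ratio of miR-466g to miR-467e-5p moved in the same way, from 2.10 and 2.78 in control ESC to 0.926 and 0.889 in paused ESC, but there it stayed above the TSC libraries (0.378 to 0.742).

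**Figure D4:**
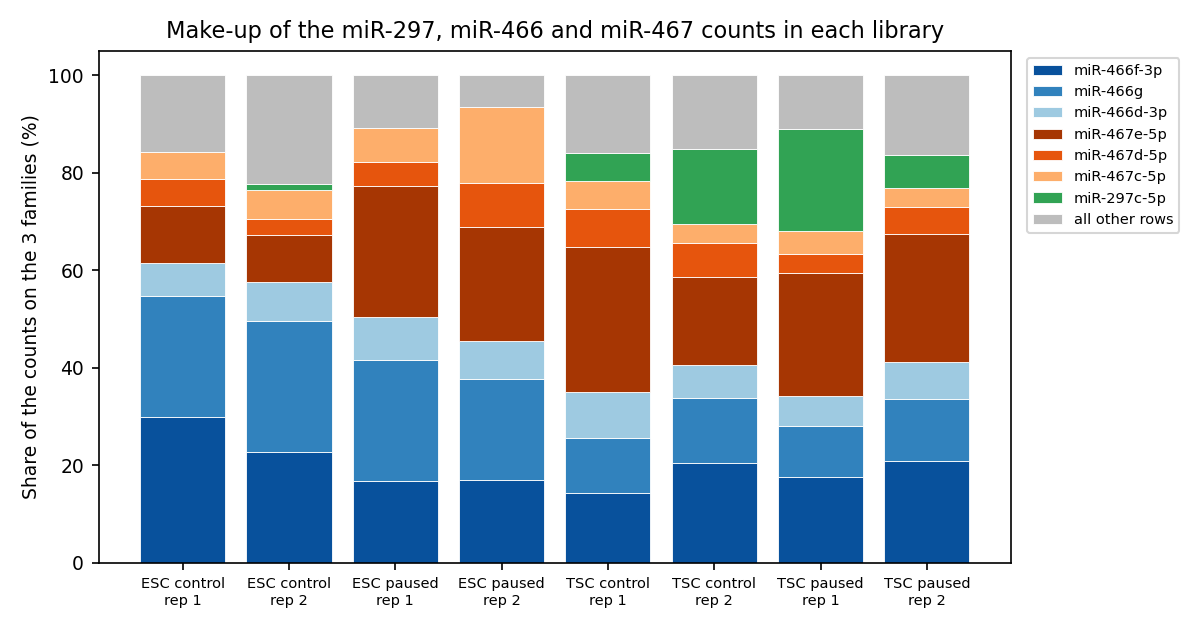
Make-up of the counts on the 3 families in each library (% of the member counts, stacked to 100%), for the 3 best counted rows of miR-466 (blue) and miR-467 (orange to brown), miR-297c-5p (green) and all other rows (grey). miR-466g takes 24.8% and 26.9% in control ESC and at most 13.5% in TSC, while miR-297c-5p is visible almost only in TSC, at 5.79% to 20.8%.

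Another 6 members with 10 or more counts were too sparse for the tests. miR-466h-5p had 82 counts, with 5 and 10 in control ESC, 4 and 2 in the deeper paused ESC libraries, 39 and 4 in control TSC versus 8 and 10 in paused TSC. miR-297b-5p had 64, of which 6 were in control ESC and 0 in paused ESC, where it was at least 7.71-fold lower on the same floor. miR-466n-3p had 41 and resembled miR-466m-3p in its values, with 273 and 703 CPM in control ESC and at most 217 CPM in any other library. The rest were miR-466p-5p with 22 counts, miR-467c-3p with 20 and miR-466i-3p with 18. A further 8 members had 1 to 9 counts each.

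A member was detected where it had at least 1 count. Control ESC libraries held 17 and 17 detected members, paused ESC 10 and 10, control TSC 23 and 17, and paused TSC 19 and 19. Thinned to the 13607 counts of the shallowest library, the expected mean numbers were 16.5, 6.69, 16.8 and 17.2. At equal depth control ESC therefore showed about as many members as TSC, and paused ESC fewer.

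Position along Sfmbt2 was known for the rows with 1 hairpin. The hairpins started between 96.2 and 147 kb from the annotated start of the gene. Repeated miR-466b and miR-467a hairpins, whose rows stood at 0, filled the middle of the array, and miR-467b-3p (111 kb, 81 counts) was the tested single-hairpin row there. The best counted single-hairpin rows lay near the far end: miR-467e at 135 kb, miR-467d at 137 kb, miR-297c at 139 kb, miR-466d at 141 kb and miR-466g at 144.1 kb. A fall on pausing of ESC was called near both ends of the array, at miR-467c-5p (103 kb, −2.48) and miR-466g (−3.60). In the middle it could not be measured, since miR-467b-3p had 1 count in control and 0 in paused ESC. Neighbours could differ in cell type: miR-297c-5p and miR-467d-5p were lower in control ESC than in control TSC, while miR-466g, farther along the array, was at 0.14.

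**Figure D5:**
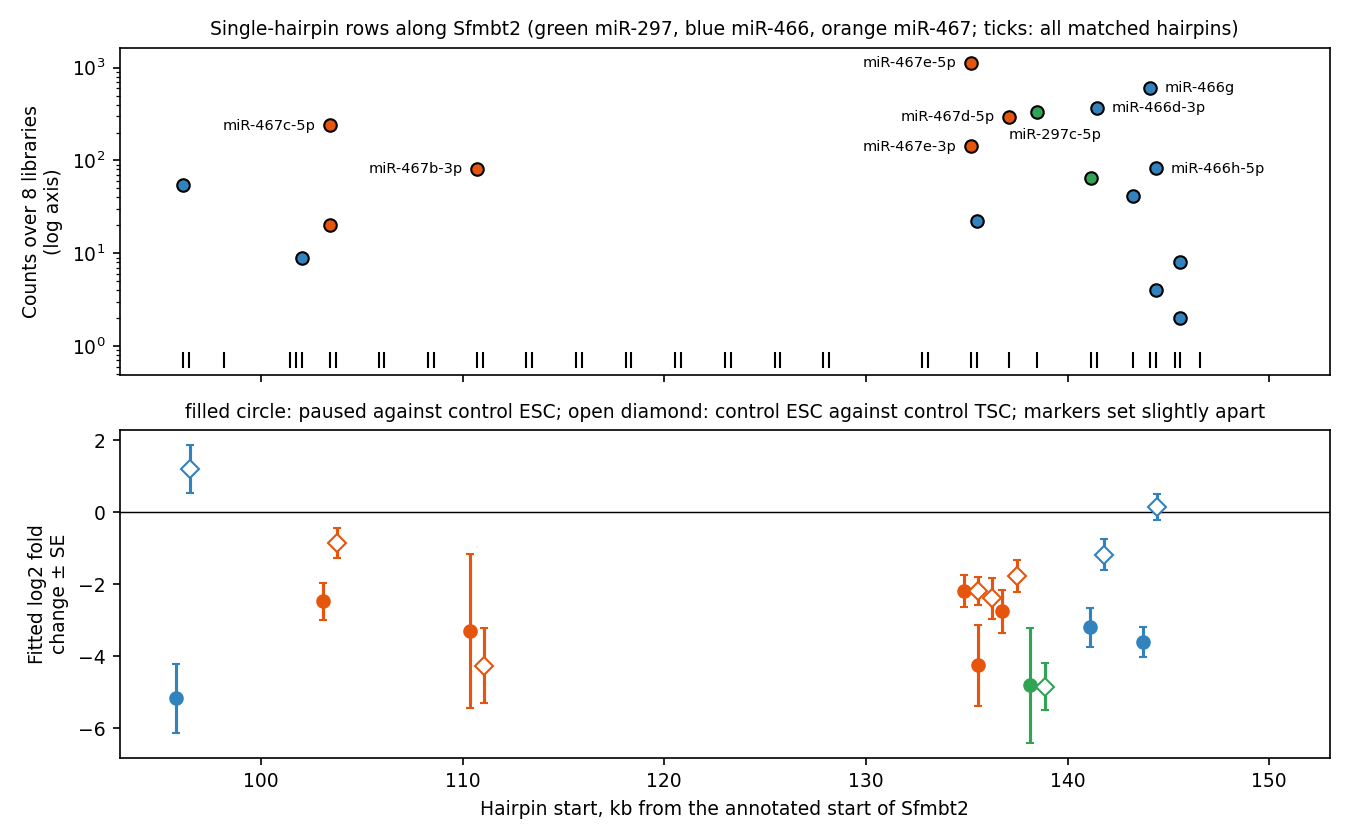
Rows with 1 matched hairpin, placed by the distance of the hairpin from the annotated start of Sfmbt2 (kb): counts over the 8 libraries (top, log axis; ticks show all matched hairpins) and fitted log2 fold change with SE (bottom). Filled circles (paused against control ESC) lie below 0, but the middle of the array holds only miR-467b-3p, which was not called, while open diamonds (control ESC against control TSC) run from −4.85 at miR-297c-5p to 1.19 at miR-466m-3p.

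The remaining rows of the array, the 30 named miR-669 plus a letter, give the setting of these values. They held 1.04% ± 0.00907 of all counts in control ESC and 0.0524% ± 0.000838 in paused ESC, while TSC gave 2.03% ± 0.0250 in control and 1.90% ± 0.225 in paused cells (SD, n = 2). Of the 30, 9 passed the filter. On pausing of ESC 8 of 9 were called lower and 0 higher, with a median of −4.22 on the log2 scale. Over all tested miRNAs 19.4% were lower and 8.25% higher there. On pausing of TSC 2 of 9 were lower and 0 higher, near the 17% lower and 1.94% higher over all tested miRNAs. In control ESC against control TSC 7 of 9 were lower, and in the paused state 9 of 9, where 40.8% and 39.3% of all were. The miR-669 share of both control ESC libraries lay below all 4 TSC libraries, as the miR-467 and miR-297 shares did, whereas the miR-466 share did not.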

How the data were processed

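Small RNA of mouse ESC (line E14) and TSC, control and paused, was sequenced, and the deposited files hold raw counts per mature miRNA that the authors made from reads placed on GRCm38, per the submitters' processing notes. Aligner, counter, annotation release and treatment of reads with several matches: not given in the sources used here. The members and lists were chosen with earlier results of these data known. Replicates 2 and 3 of each group were identical and entered once, which left 8 libraries with 13607 to 115492 counts.

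Counts were fitted with edgeR 4.0.16 (R 4.3.3): library sizes over all rows (chosen after a first fit with sizes over tested rows), TMM scaling, filterByExpr with a minimum of 10, 1 mean per group, quasi-likelihood tests, Benjamini-Hochberg adjustment over all miRNAs that passed and a threshold of 0.05, two-sided. The common dispersion was 0.0456 with 4 residual degrees of freedom per miRNA, and the spread of single miRNAs was taken wholly from the common trend. The 95% intervals of fold changes used the residual degrees of freedom summed over all tested miRNAs. The script was tested on simulated data. Members with 10 or more counts are described; the 3 best counted of miR-466 and miR-467 and the best counted miR-297 row are given in every library. Shares carry 95% Clopper-Pearson intervals, a floor is 3 counts, and SDs are over 2 libraries. Hairpins were placed by name in GENCODE M21. Alternatives were DESeq2 1.42.0, other scalings, other filters, a replicate block, fits on the compared groups only, and each library left out.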

Additional observations from a re-analysis of the deposited data

Results flagged for a closer look

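For 8 members the effect of pausing differed between ESC and TSC in edgeR's interaction test (adjusted p under 0.05), each with a deeper fall in ESC. On the log2 scale the difference was −4.96 for miR-297c-5p, −4.06 for miR-466a-5p, −3.82 for miR-466f-3p, −3.51 for miR-467e-3p, −3.13 for miR-466g, −2.45 for miR-466d-3p, −1.80 for miR-467e-5p and −1.76 for miR-467c-5p. The edgeR adjusted p-values ran from 9.14e-10 for miR-466f-3p to 0.0283 for miR-467c-5p. The calls of miR-466f-3p and miR-466g held in all 16 alternatives, with differences from −4.37 to −3.73 and from −3.73 to −2.83. Those of miR-466d-3p and miR-467e-5p were lost in 1 alternative each, without replicate 2 of control ESC (adjusted p = 0.0552 and 0.0508). The call of miR-467c-5p was lost in 8 of 16 alternatives, that of miR-297c-5p in 6 of 16, that of miR-467e-3p in 5 of 15 and that of miR-466a-5p in 2 of 15. The value of miR-297c-5p is a fitted one that rests on 3 counts in 1 control ESC library and 0 in paused ESC. Those of miR-466a-5p and miR-467e-3p rest on 12 and 7 counts in control ESC and 1 each in paused ESC. Their sizes therefore also depend on the prior count.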

How the results depend on the processing

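The 36 called fold changes of members gave 597 values under the alternatives, of which 528 kept direction and call, 69 lost the call and 0 changed sign. Of the values of the 19 fold changes not called, 247 stayed so, 20 became called and 45 changed sign. With 2 libraries kept in each group, 9 to 13 members were called lower in paused against control ESC. The number tested and the share over all miRNAs changed with the setting. It was 9 of 9 on the compared groups only and 12 of 25 without a filter, beside 22.7% and 5.40% lower over all. In paused against control TSC the 1 call became 0 with DESeq2, total counts, median-of-ratios scaling, TMM without these members and miR-669, no filter, a filter at 20 counts, the replicate block and fits on the compared groups only. With a library left out it was lost each time and the count was 0 to 1, the 1 being miR-297c-5p, called higher without replicate 2 of control TSC. In control ESC against control TSC the 7 calls became 3 of 11 with DESeq2, beside 25.2% lower and 35.9% higher over all tested miRNAs. Calls were also lost in most fits with a library left out. Without replicate 1 of control TSC the median of the members moved from −1.49 to −0.33. The 8 calls of the difference of pause effects became 4 of 11 with DESeq2 and 5 of 25 without a filter, beside 8.25% and 2.31% lower over all. With the replicate block they became 6. With a library left out calls were lost or gained as the tested set changed, and the median of the members ran from −3.75 to −2.83. The replicate block gave 10, 0, 8, 10 and 6 calls, all lower, among 11 tested members in the 5 comparisons. Over all tested miRNAs 17.0%, 5.83%, 35.4%, 37.4% and 7.77% were called lower there. Same-numbered libraries did not deviate together (r = −0.07 in ESC and −0.18 in TSC, over all tested miRNAs). With 2 shallow libraries per group this cannot settle whether the numbers pair them. The log2 ratio of the TSC shares on pausing, −0.0027 for miR-466 and 0.0015 for miR-467, became −0.45 and −0.48 on TMM-scaled CPM. The cause of these shifts was not tested. Library sizes over tested rows, an alternative chosen after seeing the data, gave the same called members in all 5 comparisons.

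The sign changed only for values that were not called, from −0.99 (miR-466a-5p in TSC) to 0.14. In paused against control TSC, miR-467b-3p (−0.02) was 0.45 with total counts, 0.21 with median of ratios, 0.36 with TMM without the members, 0.26 without a filter, 0.34 with the filter at 20, 0.071 in the compared groups only, and −0.45 to 0.87 with a library left out. miR-466f-3p was 0.23 with total counts, 0.14 with TMM without the members, 0.094 without a filter, 0.18 with the filter at 20 and −0.079 to 0.31 with a library left out. miR-467e-5p was 0.12, 0.0030 and 0.026 with total counts, TMM without the members and the filter at 20, and −0.34 to 0.57 with a library left out. With a library left out, miR-297c-5p ranged from −0.48 to 1.10, miR-466a-5p from −1.78 to 0.054, miR-466d-3p from −0.62 to 0.12, miR-466g from −0.32 to 0.084, miR-467c-5p from −0.54 to 0.22 and miR-467e-3p from −0.78 to 0.0029. In control ESC against control TSC, miR-466f-3p was 0.16 with DESeq2, 0.24 with total counts, 0.16 with median of ratios, 0.020 without a filter, 0.12 with the filter at 20, and −0.17 to 0.14 with a library left out, and miR-467c-5p was −0.84 to 0.077. Depth limits the sparse rows most: 1 to 3 counts leave counting intervals of more than 10-fold.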
